A study of Homo sapiens with 3 samples.

Results

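The genes described here are the 5 NF-kB subunits, NFKB1, NFKB2, REL, RELA and RELB, and 5 feedback inhibitors, NFKBIA, NFKBIE, NFKBIZ, TNFAIP3 and BCL3. They were chosen by gene symbol, with earlier results of these data known, and all 10 were found among the 31907 rows of the expression table. Counts of members set beside shares of all genes are therefore descriptive only. The study measured poly(A) RNA in NCI-N87 (an established cell line from a human gastric carcinoma) that had been transfected with Lipofectamine 2000. The group labelled WT was 1 library from cells given a scrambled siRNA (siScramble), and the group labelled Knockdown was 2 libraries from cells given siRNA1 or siRNA2 against the forkhead transcription factor FOXP4. The siRNAs are different reagents, the scrambled library has no replicate, and the labels name no separate cultures, so a p-value here reflects no more than the spread between these particular libraries. All values are TPM (transcripts scaled to a common library total), a level corrected for transcript length.

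NF-kB is a family of dimeric transcription factors that drive inflammatory, survival and stress genes, among them chemokine genes in epithelial cells. RELA, RELB and REL carry activation domains, while NFKB1 and NFKB2 encode precursors that are processed to DNA-binding partners and that, unprocessed, also hold dimers in the cytoplasm. NFKBIA and NFKBIE encode cytoplasmic IkB proteins that are degraded when the IKK kinases act, NFKBIZ and BCL3 encode nuclear IkB proteins that can raise as well as lower transcription, and TNFAIP3 encodes A20, a ubiquitin-editing enzyme that limits signalling upstream of IKK. Many of these genes are themselves NF-kB targets, which is the basis of the pathway's feedback.

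Promoter sequence is shown first because a shared binding motif is the textbook link between these genes. In RefSeq (GRCh38.p14), 8 of the 10 genes had promoter entries, 13 starts in all. The NF-kB consensus, a motif of 10 bases, was searched on both strands in the 250 bases before each start, and overlapping matches were kept. It was found before 8 of the 13 starts, in 6 of the 8 genes, against 9.96% of all 35116 promoters and 11.8% of all 27305 genes in the same table. Among promoters with at least 60% GC, the share was 15.1%. RELA and BCL3 held no match in this window. Windows of 30 bases around a match are given below on the gene's strand, with the matched bases in capitals.
TNFAIP3, chr6:137867188-137867217, plus strand: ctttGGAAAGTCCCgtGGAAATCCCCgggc
NFKB1, chr4:102501300-102501329, plus strand: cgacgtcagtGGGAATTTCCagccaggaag
NFKB2, start 2, chr10:102394461-102394490, plus strand: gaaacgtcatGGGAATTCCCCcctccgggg
NFKB2, start 3, chr10:102395674-102395703, plus strand: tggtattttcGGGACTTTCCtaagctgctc
REL, chr2:60881517-60881546, plus strand: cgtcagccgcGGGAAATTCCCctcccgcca
NFKB2 held further matches that are not printed, and so did NFKBIZ before its start 2, at 239 to 230 bases before that start. The TNFAIP3 window held 2 matches, both on the strand opposite to the gene, at 67 to 58 and at 55 to 46 bases before the start. NFKB2 has 3 starts in this table, counted along the gene, and held matches in 3 places before start 2, in 2 places before start 3 and none before start 1. The whole 250 bases follow for NFKBIA, an IkB gene close to the control with both siRNAs, and for NFKBIZ, one that was higher with both. Matches are in capitals.
NFKBIA, chr14:35404750-35404999, minus strand: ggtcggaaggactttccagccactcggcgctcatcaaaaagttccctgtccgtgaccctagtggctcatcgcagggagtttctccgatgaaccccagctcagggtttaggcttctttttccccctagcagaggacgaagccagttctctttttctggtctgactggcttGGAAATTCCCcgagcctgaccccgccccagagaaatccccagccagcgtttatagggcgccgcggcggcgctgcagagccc
NFKBIZ, start 1, chr3:101827740-101827989, plus strand: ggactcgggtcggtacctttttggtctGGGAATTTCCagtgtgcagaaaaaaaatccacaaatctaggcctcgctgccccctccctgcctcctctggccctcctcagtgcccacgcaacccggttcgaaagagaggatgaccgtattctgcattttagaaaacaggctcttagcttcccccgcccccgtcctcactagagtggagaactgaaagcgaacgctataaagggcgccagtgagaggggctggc
The same 10 bases, GGGAATTTCC, stand in NFKB1 and before NFKBIZ start 1 on the gene's strand, and in NFKBIA and REL on the opposite strand. A match describes these letters only, since no binding was measured here.

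FOXP4 itself stood at 93.9 TPM in the scrambled library, and at 51.6 TPM (siRNA1) and 36.7 TPM (siRNA2) after knockdown. Estimated depth was 18100000, 18300000 and 18900000 reads. The 95% Poisson intervals of the levels, from estimated reads, are given below where libraries are compared and cover counting error only. Overlap of such intervals is not a test of a difference. The epithelial markers EPCAM (1136 TPM in the control) and KRT8 (1733 TPM) were high. CDH1, which encodes E-cadherin, was low at 4.16 TPM, and ERBB2, known to be amplified in this line, measured 89.8 TPM, level number 2136 of the 31907 rows. Both values are low for what is known of NCI-N87, and the identity of the cells, taken here from the labels, was not tested. Of 7 immune markers in the table, CD14 and CD68 were at 0 in every library and PTPRC was under 0.1 TPM. CSF1R measured 4.33, 2.26 and 3.69 TPM and CD79A 0.707, 0.584 and 1.29 TPM, and LYZ, also a gastric gland product, held nearly all of the summed 3579, 4404 and 3330 TPM. Of 8 fibroblast and endothelial markers, only COL1A1 passed a mean of 1 TPM, at 13.1, 6.42 and 22.3 TPM.

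Among the 10 genes, TNFAIP3 stood furthest from the control. RELA, NFKBIZ and NFKB1 were also above it with both siRNAs, while RELB, NFKB2 and BCL3 were well above it with siRNA2 and closer to it with siRNA1 in the values as deposited. Folds are differences of log2(TPM + 1) from the scrambled library, which understate low genes, and both siRNAs share that 1 control. All 10 genes passed the filter of a mean of at least 1 TPM, as did 14429 genes in all. At least 2-fold higher with both siRNAs was 1 of 10 genes, TNFAIP3, where 2.52% of all genes tested met that rule. None of the 10 was at least 2-fold lower with both, a rule met by 2.38% of all genes. With siRNA1 alone 1 of the 10 was at least 2-fold higher, against 5.27% of all genes. With siRNA2 alone 4 of the 10 were, TNFAIP3, RELB, NFKBIZ and NFKB2, against 6.88%, while BCL3 was just short of the limit at a log2 fold of 0.98. No member was at least 2-fold lower with either siRNA, against 6% of all genes with siRNA1 and 13.2% with siRNA2. The median log2 fold of the 10 was 0.16 with siRNA1 and 0.94 with siRNA2, where all genes tested had medians of 0.03 and -0.24.

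**Figure D1:**
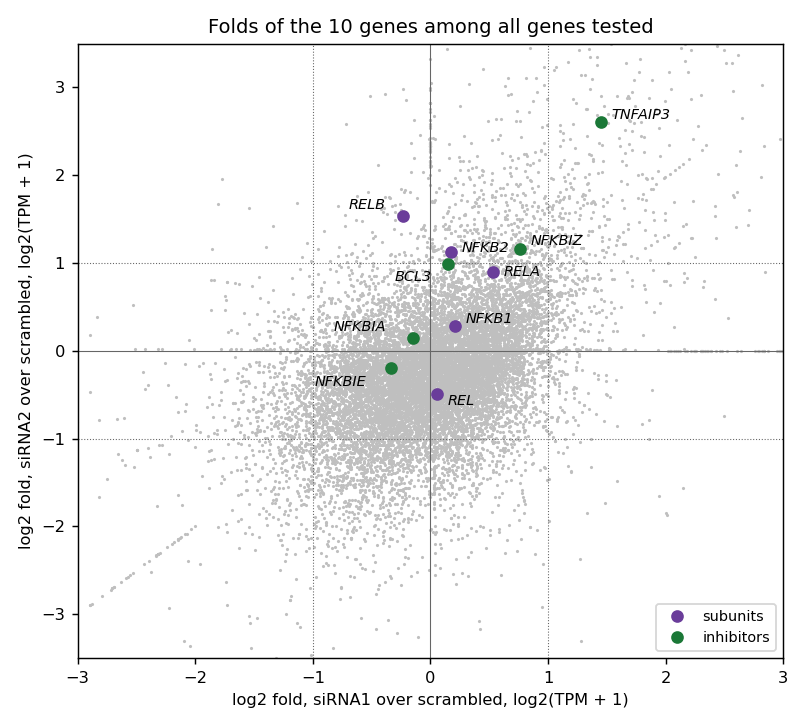
Log2 fold of siRNA1 (x axis) and of siRNA2 (y axis) over the scrambled library, for all 14429 genes tested (grey), the 5 subunits (purple) and the 5 inhibitors (green). Dotted lines mark 2-fold and grey points beyond the axes are not drawn. TNFAIP3 lies in the upper right corner, past 2-fold with both siRNAs, and RELB lies past 2-fold with siRNA2 but left of 0 with siRNA1.

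No member passed the test. In limma, with Benjamini-Hochberg adjustment over all genes tested, 0 of 14429 genes and 0 of the 10 members were called (0% of genes), while 428 genes (2.97%) and 1 member, TNFAIP3, had an unadjusted p under 0.05. Other settings called 1.02% of 9129 genes averaging at least 10 TPM, 0.847% of 10858 protein-coding genes and 0.0754% of 14593 genes without mitochondrially encoded ones, and again 0 members. TNFAIP3 came closest in the fit at 10 TPM, in limma with an adjusted p of 0.0819. The only residual degree of freedom is the spread between the siRNAs. In the main fit a gene that responds unequally to them is therefore penalised, and large folds can miss the threshold. There the standard error was 0.83 for RELB and 0.46 for NFKB1. In the fit at 10 TPM it followed a gene's own spread little, at 0.63 for RELB, 0.56 for NFKB1 and 0.70 for NFKBIE.

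TNFAIP3 (ENSG00000118503.14, chr6:137867188-137883312 on the plus strand of GRCh38) was at 9.63 TPM in the scrambled library, 28.0 TPM in siRNA1 and 63.7 TPM in siRNA2. The 3 counting intervals, 8.43 to 10.96, 25.9 to 30.3 and 60.5 to 67.0 TPM, did not overlap. Both knockdown libraries were thus above the control and siRNA2 was the higher. In bulk RNA, more cells with the transcript and more of it per cell cannot be told apart, here and below. The log2 folds of 1.45 and 2.60 average 2.03 ± 0.82 (SD, n = 2). In limma the standard error was 0.65 and the adjusted p was 0.9999, from an unadjusted 0.0244. By fold the gene stood at number 320 of 14429 with siRNA1 and number 141 with siRNA2. An antisense gene, AL357060.1, shares 95 exon bases with it and measured 0, 5.07 and 3.32 TPM, and since no source says that counting used strand, reads on the shared bases cannot be told apart. The 3 genes of at least 10 TPM nearest to TNFAIP3 in the plane of both folds, among 9129 and over 3 libraries, were SOWAHC (103, 294 and 623 TPM), the checkpoint kinase gene WEE1, which holds back entry into mitosis (27.8, 75.9 and 184 TPM), and the AP-1 subunit JUNB (105, 301 and 685 TPM).

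NFKBIZ (ENSG00000144802.11, chr3:101827991-101861022, plus strand), the least abundant inhibitor, measured 3.67 TPM in the control, against 6.92 TPM for siRNA1 and 9.47 TPM for siRNA2. Its lowest level rested on about 102 estimated reads, and its 3 counting intervals (2.99 to 4.46, 5.96 to 7.99 and 8.35 to 10.7 TPM) were apart. The log2 folds were 0.76 and 1.16, a mean of 0.96 ± 0.28 (SD, n = 2).

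BCL3 (ENSG00000069399.14, chr19:44747705-44760044, plus strand), which binds p50 and p52 homodimers in the nucleus, was the most abundant of the 10 genes in every library. It measured 94.4 TPM in the control, against 105 TPM for siRNA1 and 188 TPM for siRNA2. The siRNA2 library was far above the others, while siRNA1 stood 1.11 times above the control, with intervals that only just missed each other (89.6 to 99.4 and 99.9 to 110.4 TPM). The log2 folds were 0.15 and 0.98.

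The classical IkB genes stayed close to the control level. NFKBIA (ENSG00000100906.10, chr14:35401511-35404749, minus strand), which encodes IkB-alpha, measured 58.6, 52.7 and 65.02 TPM, with siRNA1 the lowest and siRNA2 the highest. Both counting intervals with FOXP4 siRNA overlapped that of the control, and the log2 folds were -0.15 and 0.15. The siRNA1 and siRNA2 intervals were apart from each other (48.5 to 57.3 and 60.4 to 70.0 TPM). NFKBIE (ENSG00000146232.16, chr6:44258166-44265788, minus strand), which encodes IkB-epsilon, measured 17.4, 13.5 and 15.0 TPM. Its control was highest, all 3 intervals overlapped, and the log2 folds were -0.34 and -0.19. NFKBIE was the 1 member below the control with both siRNAs, a pattern that 38.1% of all genes tested had. Its siRNA2 fold turned to 0.07 with median-of-ratios and 0.086 with quantile scaling, and both folds were above 0 with the GC trend removed.

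Among the subunits, RELA (ENSG00000173039.18, chr11:65653596-65663094, minus strand) was above the control with both siRNAs. It measured 28.4 TPM in the control, against 41.5 TPM for siRNA1 and 53.6 TPM for siRNA2. The 3 counting intervals were apart, with the control lowest, and the log2 folds were 0.53 and 0.89, a mean of 0.71 ± 0.26 (SD, n = 2). NFKB1 (ENSG00000109320.11, chr4:102501329-102617302, plus strand), which encodes the precursor of p50, the usual partner of RELA, measured 47.0, 54.3 and 57.1 TPM. Its knockdown libraries overlapped each other and stood only slightly above the control, at log2 folds of 0.21 and 0.28.

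RELB and NFKB2, the pair of the non-canonical pathway, were higher with siRNA2 and near the control with siRNA1 as deposited, but not with the GC trend removed, where the siRNA1 folds were 0.57 and 0.80. RELB (ENSG00000104856.13, chr19:45001430-45038198, plus strand) measured 16.7 TPM in the control, against 14.03 TPM for siRNA1 and 50.1 TPM for siRNA2. The counting intervals of the control and siRNA1 overlapped, and siRNA2 was 3.00 times the control. The log2 folds were -0.23 and 1.53, and their difference of 1.76 was the largest among the 10 genes as deposited. With the GC trend removed it was 1.29, below the 1.40 of TNFAIP3. NFKB2 (ENSG00000077150.18, chr10:102394110-102402529, plus strand) measured 40.5, 45.8 and 89.5 TPM, again with overlapping control and siRNA1 intervals, and its log2 folds were 0.17 and 1.12. The difference between the siRNAs was not tested, since each is 1 library. Over all genes 5.99% were at least 2-fold higher with siRNA2 than with siRNA1, and 2 of the 10 members were, RELB and TNFAIP3.

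REL (ENSG00000162924.14, chr2:60881521-60931610, plus strand), which encodes c-Rel, was the least abundant subunit and the 1 member that was lower with siRNA2 beyond counting error. It measured 4.17 TPM in the control, against 4.37 TPM for siRNA1 and 2.67 TPM for siRNA2, with log2 folds of 0.05 and -0.50. The non-coding gene AC010733.2 shares 5702 exon bases with REL on the same strand in GENCODE 29. The expression table holds no row of that name, and the authors' annotation is not known. Whether reads of REL were split was not tested.

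**Figure D2:**
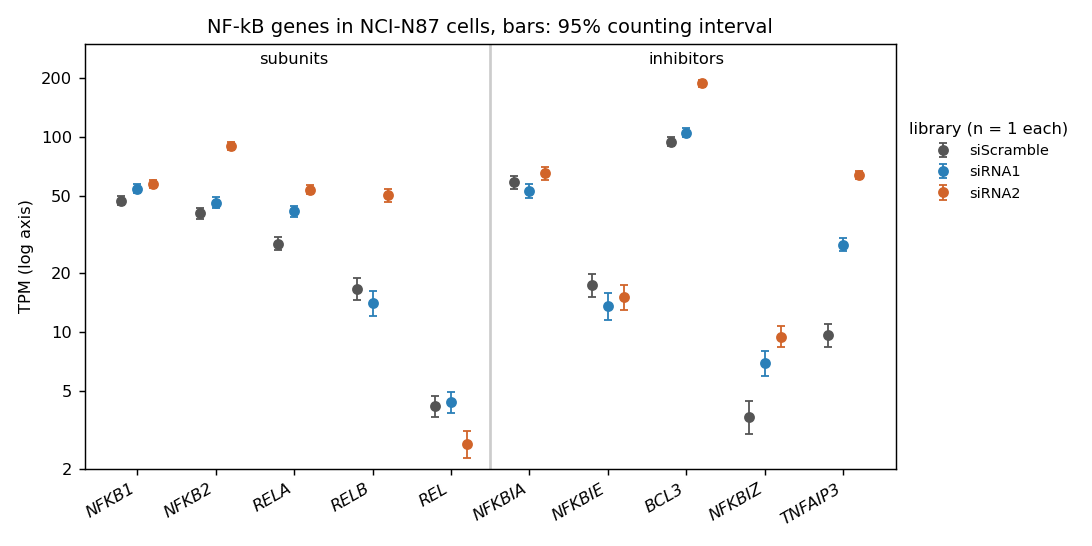
TPM (log axis) of the 10 genes in the scrambled (grey), siRNA1 (blue) and siRNA2 (orange) libraries, 1 library a point, with bars for the 95% counting interval from estimated reads. TNFAIP3 goes from 9.63 to 28.0 and 63.7 TPM, RELB is apart from the control in siRNA2 alone, and NFKBIA and NFKBIE overlap with the control throughout.

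The siRNA2 counting interval lay wholly above that of the control for 7 of the 10 genes, against 20.7% of 12317 genes tested with a known exon length, and wholly below it for 1, against 45.4%. With siRNA1 it lay wholly above for 5 of the 10, against 32.7%, and wholly below for 0, against 29.3%. Higher than the control with both siRNAs at any size were 6 of the 10 (NFKB1, NFKB2, RELA, NFKBIZ, TNFAIP3 and BCL3), against 24.5% of all genes tested. NFKBIA and RELB were lower with siRNA1 and higher with siRNA2, as were 9.81% of all genes, and REL was the reverse, as were 26.9%.

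The make-up of the family differed between libraries. In the control the levels ran from BCL3 through NFKBIA, NFKB1, NFKB2, RELA, NFKBIE, RELB, TNFAIP3 and REL to NFKBIZ. Of neighbours in that order, NFKBIE and RELB overlapped within counting error (15.1 to 19.9 and 14.6 to 18.9 TPM), as did REL and NFKBIZ (3.69 to 4.72 and 2.99 to 4.46 TPM), and the other neighbours were apart. TNFAIP3 was number 8 of 10 there, number 6 with siRNA1 and number 4 with siRNA2. The 5 subunits summed to 137, 160 and 253 TPM and the 5 inhibitors to 184, 206 and 341 TPM. As deposited, the ratio of inhibitor to subunit transcripts was therefore close in all 3 libraries, at 1.34, 1.29 and 1.35. BCL3 alone held 51.4%, 50.9% and 55.0% of the inhibitor TPM. Within the subunits, the share of RELB was 12.2%, 8.77% and 19.8%, that of NFKB2 29.6%, 28.6% and 35.4%, and that of NFKB1 34.4%, 33.9% and 22.6%. As deposited, NFKB2 was below NFKB1 in the control and with siRNA1, with NFKB2 to NFKB1 ratios of 0.863 and 0.844. With siRNA2 NFKB2 was above NFKB1, at 1.57. RELB to RELA was 0.587, 0.338 and 0.933. Within the inhibitors, TNFAIP3 took 5.24%, 13.6% and 18.7%, and NFKBIA 31.9%, 25.6% and 19.1%. The ratio of NFKBIA to RELA was 2.07 in the control and lower with either siRNA, at 1.27 and 1.21. These ratios compare transcripts, not proteins, and each is 1 library. They are of values as deposited, and the GC trend described below moved the siRNA1 levels of the members unequally. With it removed, the siRNA1 log2 folds were 0.80 for NFKB2, 0.24 for NFKB1 and 1.08 for BCL3. The siRNA1 ratios and shares were not recomputed on that scale.

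**Figure D3:**
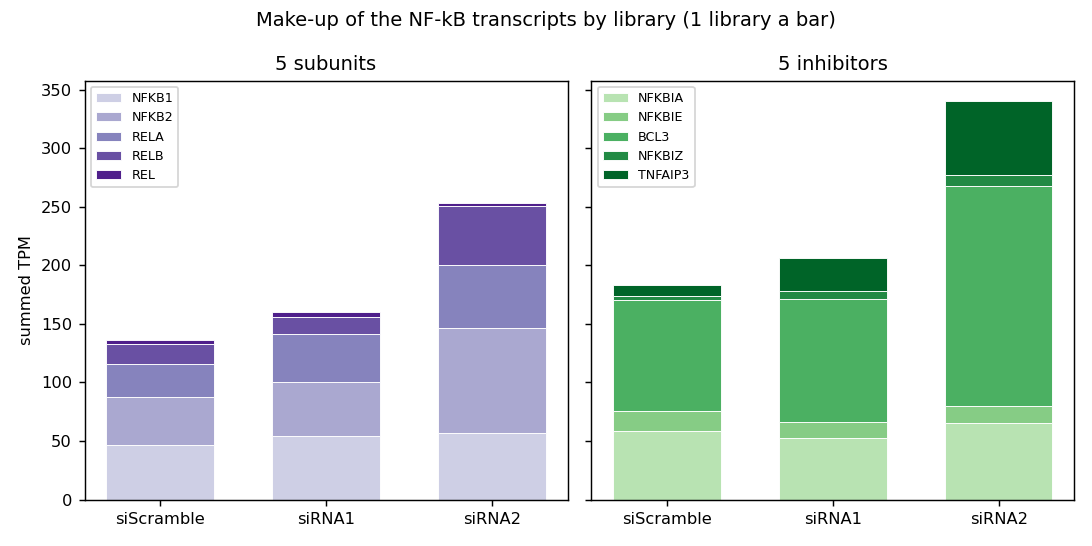
Summed TPM of the 5 subunits (left) and the 5 inhibitors (right), stacked by gene, with 1 library a bar. The sums go from 137 to 253 TPM and from 184 to 341 TPM between the scrambled and the siRNA2 library, and the RELB, NFKB2, BCL3 and TNFAIP3 blocks are taller with siRNA2.

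GC content moved with the siRNA1 folds. Across 12301 nuclear genes, which are not independent replicates, the siRNA1 fold had a Spearman correlation of -0.61 with the GC content of the longest transcript and the siRNA2 fold one of -0.10. Several members are GC-rich, BCL3 at 67.4%, RELB at 65.4%, NFKB2 at 62.4% and NFKBIE at 61.0%, and REL is poor in GC at 38.7%. With a lowess trend on GC removed from each fold, the siRNA1 values were 1.08 for BCL3, 0.57 for RELB, 0.80 for NFKB2, 0.88 for RELA and 0.21 for NFKBIE. RELB, NFKBIE and NFKBIA (to 0.02) thus turned from below to above the control with siRNA1, NFKBIE turned with siRNA2 too (to 0.11), and REL turned from above to below with siRNA1 (to -0.40). TNFAIP3 was nearly the same, at 1.46 with siRNA1 and 2.85 with siRNA2. On that scale 9 of the 10 were higher with both siRNAs, against 33.9% of all genes, 2 of the 10 (BCL3 and TNFAIP3) were at least 2-fold higher with both, against 2.29%, and the members' medians were 0.60 and 1.27. FOXP4 at 62.9% GC moved the same way, from a log2 fold of -0.85 to -0.20 with siRNA1 and from -1.33 to -1.02 with siRNA2. The part of GC content in the siRNA1 values was not tested beyond this removal.

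**Figure D4:**
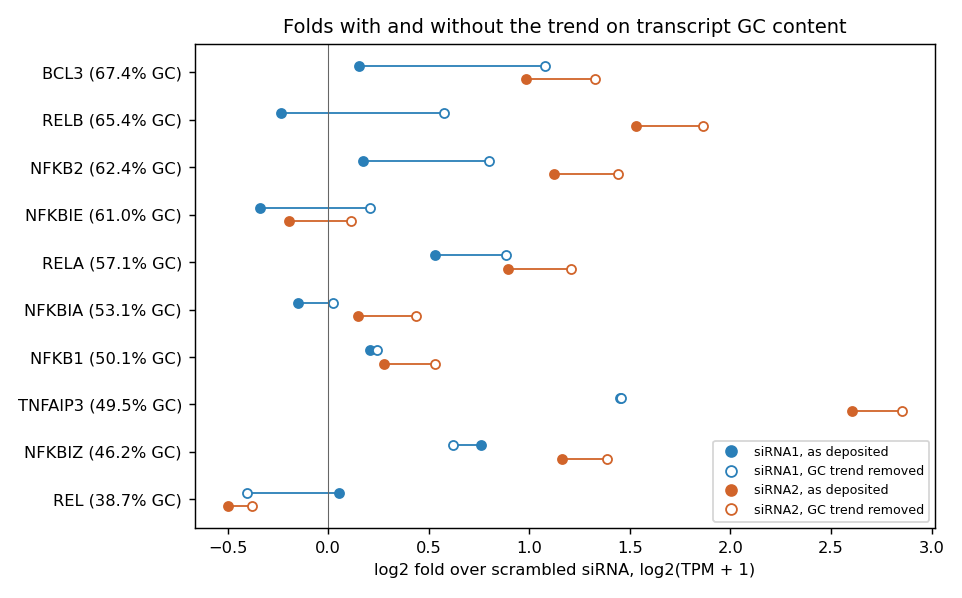
Log2 fold over the scrambled library for each gene, ordered by GC content of its longest transcript, as deposited (filled) and with the GC trend removed (open), for siRNA1 (blue) and siRNA2 (orange). The siRNA1 values of BCL3, RELB and NFKB2 shift to the right by the most, and those of TNFAIP3 hardly move.

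Mitochondrially encoded genes, which take a share of the fixed TPM total, held 6.37% of the control TPM, 10.4% of the siRNA1 TPM and 1.92% of the siRNA2 TPM. With them left out and TPM rescaled, TNFAIP3 had log2 folds of 1.52 and 2.55 and RELB -0.17 and 1.47, so the folds were as large without them to within 0.1. Median-of-ratios rescaling took the median of all genes with siRNA2 from -0.24 to 0.01. The siRNA2 folds then were 2.87 for TNFAIP3, 1.80 for RELB, 1.40 for NFKB2, 1.26 for BCL3 and 1.17 for RELA, and 6 of the 10 members were at least 2-fold higher with siRNA2, against 9.76% of all genes.

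The rest of the pathway is given by role, from lists drawn up with results of these data known, with counts of genes measured at a mean of at least 1 TPM. Limma over all genes tested called 0 of 14429 genes, so it cannot set any of these lists apart. Calls in other settings are not given by list. Over all genes tested, 24.5% were higher and 38.1% lower with both siRNAs, and 2.52% were at least 2-fold higher with both. Their medians were 0.03 with siRNA1 and -0.24 with siRNA2. Of 13 ligand genes in the table, 4 were measured and all 4 were higher with both siRNAs, 2 of them at least 2-fold. TNFSF15, a ligand of the TNF family, measured 14.2, 57.7 and 69.5 TPM, and the IL-1 family alarmin IL33 measured 10.51, 92.7 and 31.6 TPM. Genes of classical inducers were at or near 0 in the control. TNF and LTA were listed at 0 in all 3 libraries and IL1B at 0 except for 0.349 TPM with siRNA2. IL1A, at 0, 0.413 and 1.42 TPM, and LTB, at 0, 0.286 and 0.422 TPM, were at 0 in the control and low with the siRNAs. Of 16 receptor genes measured, 9 were higher and 3 lower with both siRNAs, with medians of 0.39 and 0.66. The TRAIL receptor TNFRSF10A measured 40.8, 91.7 and 123.5 TPM and the IL-1 receptor accessory chain IL1RAP 3.53, 7.54 and 7.34 TPM. NOD1, a sensor of bacterial peptidoglycan, measured 5.92, 4.09 and 2.40 TPM. TNFRSF12A, the TWEAK receptor, named after its values were seen, measured 220, 341 and 1789 TPM.

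Signal transducers were mixed, and their counts stand beside 24.5% of all genes tested higher and 38.1% lower with both siRNAs. Of 14 adaptor genes measured, 4 were higher and 5 lower with both siRNAs, with medians of -0.20 and 0.04. BCL10, which links CARD proteins to IKK, measured 55.1, 145 and 182 TPM. TRAF3, which keeps the kinase NIK low, measured 39.0, 20.8 and 15.4 TPM, and TRADD, an adaptor of the TNF receptor, 46.3, 18.9 and 25.9 TPM. Of 15 IKK and upstream kinase genes, 6 were higher and 3 lower with both, with medians of 0.30 and -0.04. IRAK2, a kinase of IL-1 receptor signalling, measured 1.59, 5.42 and 9.23 TPM, and IKBKG, the regulatory subunit of IKK, 7.83, 3.23 and 5.63 TPM. MAP3K14, which encodes NIK, the kinase that triggers NFKB2 processing, was named after its values were seen and measured 4.61, 5.48 and 10.8 TPM. Of 19 genes for ubiquitin ligases, deubiquitinases and their partners, 8 were higher and 6 lower with both, with medians of 0.30 and 0.05. BIRC2, an IAP ubiquitin ligase, measured 39.8, 78.8 and 70.4 TPM, and SHARPIN, a subunit of the linear ubiquitin ligase, 74.0, 36.9 and 51.4 TPM. Of 9 other inhibitors, 3 were higher and 4 lower with both, with medians of -0.28 and -0.10. ZC3H12A, an RNase that degrades inflammatory mRNAs, measured 13.4, 20.6 and 19.8 TPM, and NFKBID, a further nuclear IkB gene, 9.10, 6.66 and 5.40 TPM.

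Of 27 target genes of NF-kB in the table, 15 were measured. With both siRNAs 12 of them were higher and 1 was lower, against 24.5% and 38.1% of all genes tested. At least 2-fold higher with both were 6, against 2.52% of all genes tested. The medians of the 15 were 0.64 with siRNA1 and 2.34 with siRNA2. One of the 15, IL6 at 0, 0 and 4.38 TPM, passed the filter through siRNA2 alone, and without it, an alternative chosen after seeing the data, the medians of the other 14 were 0.70 and 1.93. CXCL8, which encodes the neutrophil chemokine interleukin-8, measured 1.31, 159 and 334 TPM, and the prostaglandin synthase gene PTGS2 9.999, 66.4 and 113 TPM. TNFAIP2 was the 1 lower target, at 179, 99.9 and 73.7 TPM. BIRC3 is listed among both targets and ubiquitin ligases, and measured 3.48, 5.96 and 11.9 TPM. Targets are shared with other transcription factors. Of 15 interferon and RNA sensing genes, 6 were higher and 1 was lower with both siRNAs, and 0 were at least 2-fold higher with both. One of the 6, IFNB1 at 0.495, 1.53 and 1.26 TPM, passed the filter only through the siRNA libraries. The medians of the 15 genes were 0.54 with siRNA1 and -0.13 with siRNA2. The summed levels were 1022, 881 and 817 TPM, of which ISG15 held the largest part. IFNL1 measured 2.48, 5.64 and 8.81 TPM, IFIT2 9.50, 17.5 and 23.0 TPM and ISG15 598, 339 and 428 TPM. The part of transfection or RNA sensing in the members' values was not tested.

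**Figure D5:**
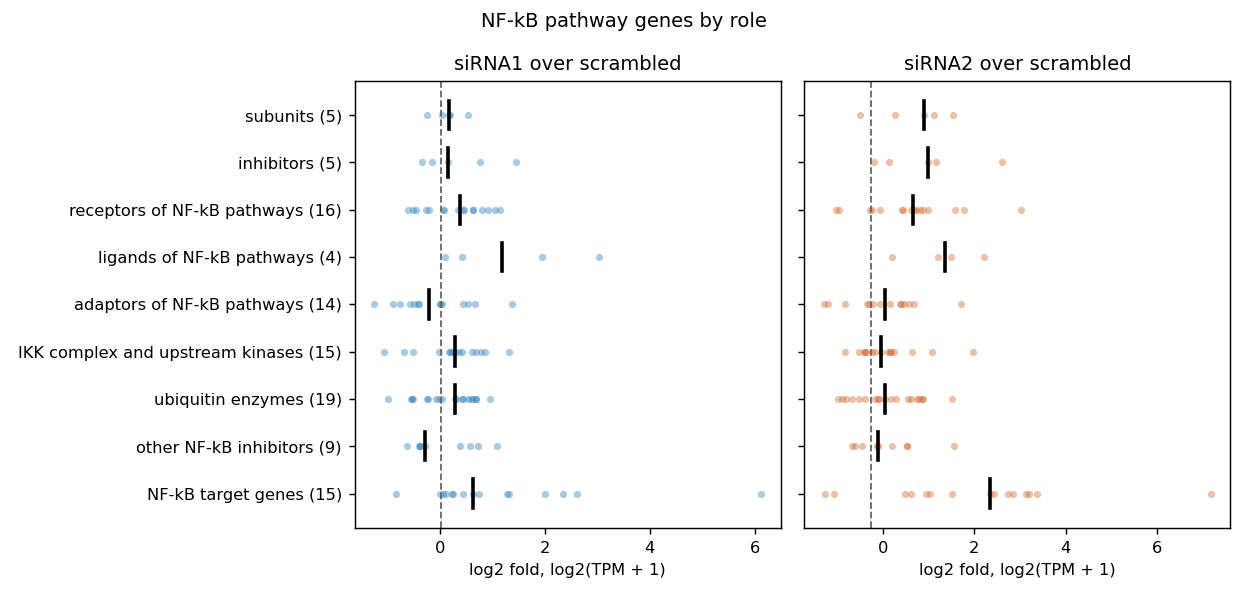
Log2 fold over the scrambled library for siRNA1 (left) and siRNA2 (right), with 1 point a measured gene, black bars for the list median, a dashed line for the median of all genes tested (0.03 and -0.24) and the number of measured genes in brackets. Target genes have medians of 0.64 and 2.34 (0.70 and 1.93 without IL6), while adaptors, kinases and ubiquitin enzymes spread on either side of 0.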

How the data were processed

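Per the labels, the deposited table holds TPM values by gene symbol, 1 column per library. Per the submitters' processing notes the build was GRCh38; a quantification tool and its annotation are not given in the sources used here. Because TPM fixes each library's total, shares, not amounts, are compared. Depth was estimated from low values, since TPM times exon length (GENCODE 29) steps by whole reads: 92.7%, 92.2% and 92.6% of values with up to 10 estimated reads lay within 0.1 of a whole number. Genes averaging at least 1 TPM over the libraries were compared as log2(TPM + 1) by limma (3.58.1, R 4.3.3), whose variance prior followed expression level, at a threshold of 0.05, and a rule of at least 2-fold stood beside the test. The code was tested on simulated data. Members and lists were chosen with earlier results of these data known. Named genes were the 10 members, FOXP4, marker genes, genes at the ends of each list by the smaller fold, and those nearest to a member past 2-fold. Others are marked. Not every gene at the ends is named. TAB1 among the kinases and COMMD1 among the other inhibitors were the lowest by that rule, and IKBKG and NFKBID, next to them, were named instead. Positions and GC content came from GENCODE 29, promoters from RefSeq GRCh38.p14. Listed symbols were matched directly or by RefSeq synonym. Alternatives varied the pseudocount, filter, scaling, GC trend, gene types and libraries.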

Additional observations from a re-analysis of the deposited data

Results flagged for a closer look

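In all, 3 members had log2 folds of opposite sign with the siRNAs, and the differences were not tested, since each siRNA is 1 library. Such a split was common. Of all genes tested, 9.81% were lower with siRNA1 and higher with siRNA2, and 26.9% were the reverse. RELB was 1.76 higher on the log2 scale with siRNA2 than with siRNA1. REL was lower with siRNA2, by a log2 difference of -0.55, and NFKBIA was higher by 0.30. The counting intervals of NFKBIA with either siRNA overlapped that of the control, as did those of RELB and REL with siRNA1. With the GC trend removed, each of the 3 had folds of 1 sign: 0.57 and 1.86 for RELB, -0.40 and -0.38 for REL, and 0.02 and 0.44 for NFKBIA. The differences were then 1.29, 0.026 and 0.41.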

How the results depend on the processing

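Limma called 0 genes with other pseudocounts, no filter, median-of-ratios or quantile scaling or the GC trend removed, 93 among those averaging at least 10 TPM, 92 among protein-coding genes and 11 without mitochondrially encoded genes, and 0 of the members in each of these. The adjusted p of TNFAIP3 ranged from 0.0819 (mean of at least 10 TPM) to 0.9999. Members at least 2-fold higher with both siRNAs were 1 in all settings but the GC-trend removal, with 2, and ranged from 1 to 4 when a single siRNA was kept; those at least 2-fold lower were 0 throughout. Of 108 member values under alternatives 101 kept their sign. That count includes the values with no filter, at 10 TPM and for protein-coding genes, where the folds are the main ones and could not change sign. The mean fold of NFKBIA turned to 0.13 with median-of-ratios, 0.054 with quantile scaling and 0.23 with the GC trend removed, and that of NFKBIE to 0.16 with the latter; the cause was not tested. With 1 siRNA left out, NFKBIA ranged from -0.15 to 0.15, REL from -0.50 to 0.054 and RELB from -0.23 to 1.53, and no limma fit was possible, as no residual degree of freedom remained. With a mean of at least 10 TPM, NFKBIZ and REL were not tested. No paired analysis was possible because the control is 1 library. At this depth, differences of NFKBIE and NFKBIA from the control were not detectable beyond counting error.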
